A study of Mus musculus with 16 samples.

Results

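The genes described here are the zinc-finger transcription factors Egr1 and Egr2 and the corepressors Nab1 and Nab2. They were taken by platform gene symbol, which gave 4 genes with 7 probe sets, of 18193 genes and 45101 probe sets on the array. Where a gene had several probe sets, its level was read from the one with the highest mean (Egr1 1417065_at, Egr2 1427682_a_at, Nab1 1417624_at, Nab2 1417930_at). The series profiled a mouse beta-cell line, R7T1, on 16 one-colour arrays, with 1 array for each of 4 treatments at each of 4 times. The treatments were the DMSO vehicle, a compound labelled BayK8644(2a), Exendin-4, and both agents together, and the times were 0.5, 2, 6 and 24 h. BayK8644, a dihydropyridine, is an agonist of L-type calcium channels. The peptide Exendin-4 is an agonist of the GLP-1 receptor. The sources used here do not explain the suffix 2a, so the compound was taken to be BayK8644, and they give no doses. All arrays came from this 1 line, and no source says that they came from separate cultures. The p-values therefore measure no more than the array-to-array spread, part or all of which may be technical. In the main model that spread is the departure of the arrays from added effects of the agents at each time. A real interaction of the agents would count as error there. In such bulk RNA, fewer cells of a type and less RNA per cell cannot be told apart.

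Egr proteins are immediate early factors: calcium entry and growth signals activate MAP kinases and the factors SRF, Elk and CREB, which switch on Egr genes within minutes without new protein synthesis. Egr1 and Egr2 bind GC-rich sites and activate growth, survival and feedback genes. Nab1 and Nab2 do not bind DNA. They dock on Egr proteins and turn them into repressors, in part by bringing in the NuRD chromatin remodelling complex, and Nab2 is known as an Egr target, which makes it part of a feedback loop.

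Promoter letters for these genes were read from a reference. It held no promoter window for Egr1, so Egr1 could not be searched. RefSeq promoter windows (build GRCm38.p6, from 250 bases before to 50 after each start) were found for Egr2 (5 windows from alternative starts, 3 of them overlapping), Nab1 (1 window) and Nab2 (1 window). They were searched on both strands for the Egr site GCGTGGGCG, its looser form GCGNGGGCG, the core GCGTGGG, the SRF site known as the CArG box, and TGACG, the core of the site for CREB. The core GCGTGGG lies within GCGTGGGCG, which is itself 1 form of GCGNGGGCG, so these matches overlap. The sites shown are a selection of the matches to the factors named above, with the match in capitals. Each is read 5′ to 3′ on the strand of its gene.
Nab1 Egr site, chr1:52500538-52500567, minus strand: actcggccgcGCGTGGGCGggagccggagc
Nab1 Egr site on the opposite strand, chr1:52500570-52500599, minus strand: gccccgcggcCGCCCACGCcgggatctgcg
Nab2 Egr core on the opposite strand, chr10:127666716-127666745, minus strand: ccccggttctgCCCACGCcctcctcccgcc
Egr2 CArG box, chr10:67537787-67537816, plus strand: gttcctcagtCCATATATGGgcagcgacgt
Egr2 TGACG on the opposite strand, chr10:67537802-67537831, plus strand: tatgggcagcgaCGTCAcgggtattgaaga

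The Nab1 window held 2 matches to GCGTGGGCG, at 109 and 141 bases upstream of its start. Of 32851 windows of 27025 genes, 0.612% held at least 1. A further Nab1 match fitted only the looser GCGNGGGCG, which 5.55% of windows held. The Nab2 window held no match to either long form and 1 to the core GCGTGGG, at 31 bases upstream of the start. The core was found in 5.04% of windows, and it was chosen after the Nab2 window had been read. The Egr2 windows held no Egr site of these forms. The printed CArG box lay 72, 73 or 133 bases upstream, depending on the start, in 3 overlapping windows. A different CArG box lay 72 bases upstream in another window. Thus 4 of the 5 Egr2 windows held a CArG box, against 1.63% of all windows, but 3 of these 4 share the same box. The same 3 starts also shared 2 TGACG matches, a motif that 20.8% of windows held at least once. Neither Nab window held a CArG box. Nab1 held 1 TGACG and Nab2 none. A match describes the letters of the window only, since binding was not measured.

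Egr1 was high at 0.5 h on the arrays with BayK8644 and still raised at 24 h. Values are log2 of the deposited GCRMA intensity, and a difference of 1 is a doubling. At 0.5 h its level was 10.56 with DMSO, 13.76 with BayK8644, 11.31 with Exendin-4 and 13.85 with both. At 2 h it was 10.19, 11.61, 10.33 and 11.53 in the same order. At 6 h it was 10.21, 11.33, 10.27 and 11.26, and at 24 h 10.30, 11.23, 10.32 and 11.23. At each time both arrays with BayK8644 lay above both without it. The Exendin-4 array at 0.5 h was the highest of the arrays without BayK8644, and it lay above 3 arrays with BayK8644, those of 24 h and that with both agents at 6 h.

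The level of Egr1 was therefore compared between the 2 arrays with BayK8644 and the 2 without it at each time, in 1 limma model over the 16 arrays. BayK8644 raised Egr1 at 0.5 h by 2.87 ± 0.13 (SE, 2 against 2 arrays), a 7.31-fold rise with an adjusted p of 1.12e-05. At 2 h the rise was 1.31 ± 0.13, or 2.48-fold (adjusted p = 0.00174). At 6 h Egr1 was 2.07-fold higher (1.05, adjusted p = 0.0043) and at 24 h 1.89-fold higher (0.92, adjusted p = 0.00649). By the size of its difference Egr1 had rank 3 of 10610 genes at 0.5 h, rank 22 at 2 h, rank 56 at 6 h and rank 99 at 24 h. The 0.5 h call was kept with each of the 16 arrays left out in turn (highest adjusted p 0.000213). The 2 h call was lost without either the DMSO array or the BayK8644 array of 2 h (adjusted p up to 0.0525), the 6 h call without any 1 of the arrays of 6 h (up to 0.121), and the 24 h call without the Exendin-4 array or the array with both agents of 24 h (up to 0.0728).

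Egr2, which acts in hindbrain and Schwann cell development and in lymphocytes and is induced along with Egr1 by many stimuli, was above background at 0.5 h with BayK8644 and at the background level nearly everywhere else. At 0.5 h its level was 3.69 with DMSO, 8.05 with BayK8644, 3.75 with Exendin-4 and 8.51 with both. At 2 h it was 3.53, 3.66, 3.72 and 3.69, at 6 h 3.71, 3.81, 3.58 and 4.07, and at 24 h 3.73, 3.74, 3.55 and 3.79. A log2 level of 4, an intensity of 16, was the level a probe set had to reach on at least 2 arrays to be tested. Of the 14 arrays other than the BayK8644 arrays of 0.5 h, 13 were under it, and the remaining 1, with both agents at 6 h, was at 4.07.

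BayK8644 raised Egr2 at 0.5 h by 4.56 ± 0.16 (23.6-fold, adjusted p = 1.33e-06), the largest difference of the 10610 genes. The lower side lay under the filter level, so the size of this fold is set in part by the method's floor. Against the filter level itself, the mean of 8.28 with BayK8644 was at least 19.4-fold higher. The call was kept with each of the 16 arrays left out (highest adjusted p 0.000118). At 2, 6 and 24 h the differences were 0.05, 0.29 and 0.12, with adjusted p of 0.954, 0.434 and 0.709. Egr2 passed the expression filter through its 0.5 h arrays with BayK8644, so its place among the genes tested is not independent of that rise.

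**Figure D1:**
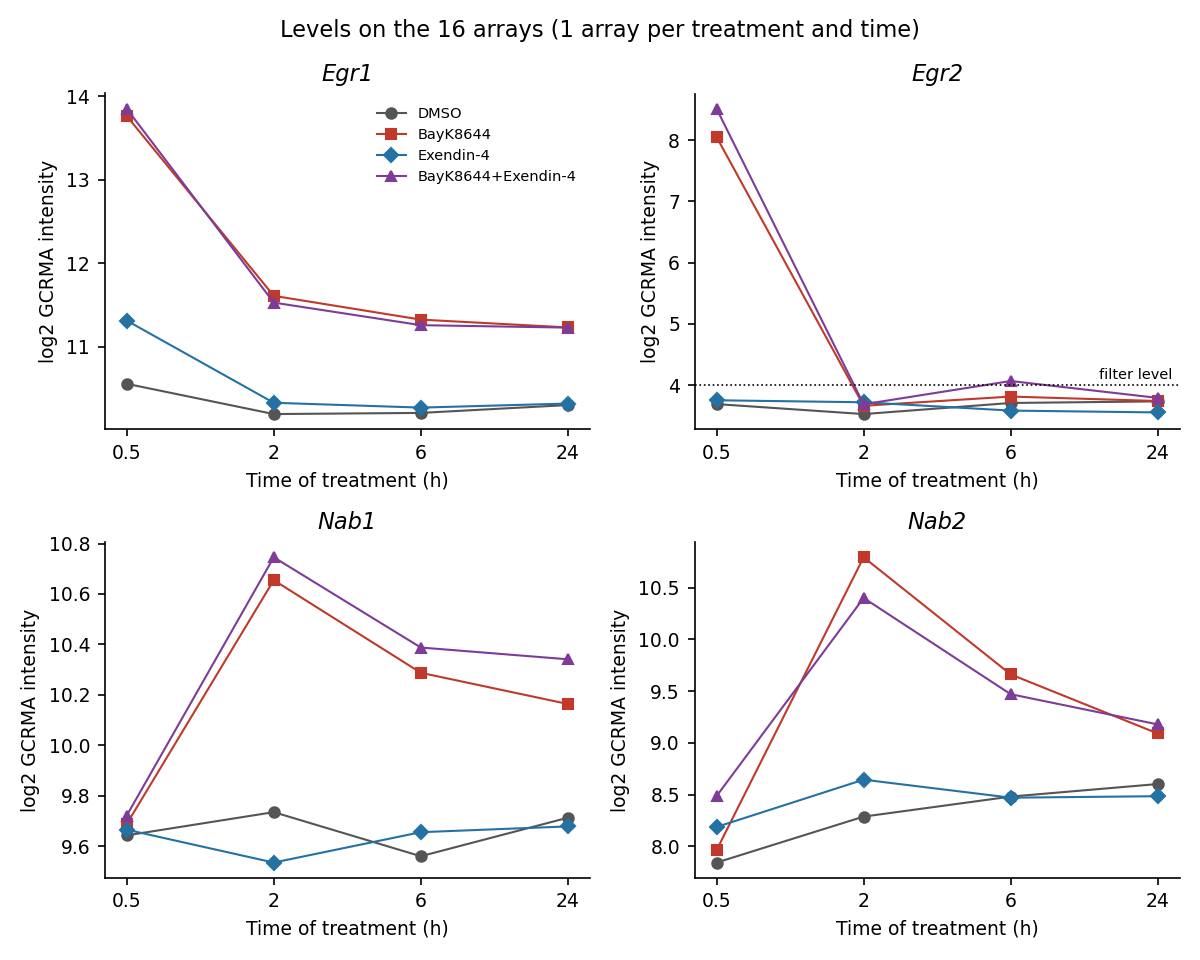
Log2 GCRMA intensity of Egr1, Egr2, Nab1 and Nab2 (vertical axes, each with its own range) by time of treatment in h (horizontal axes, times evenly spaced and not to scale). Each point is 1 array and each line 1 treatment. The dotted line in the Egr2 panel is the filter level of 4. The Egr genes are highest at 0.5 h with BayK8644 (13.76 and 13.85 for Egr1) and the Nab genes at 2 h with BayK8644 (10.79 and 10.40 for Nab2).

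Nab1 did not pass the test at 0.5 h and was higher with BayK8644 from 2 h on. At 0.5 h its level was 9.64 with DMSO, 9.69 with BayK8644, 9.67 with Exendin-4 and 9.72 with both. At 2 h it was 9.73, 10.65, 9.53 and 10.75. At 6 h it was 9.56, 10.29, 9.66 and 10.39, and at 24 h 9.71, 10.16, 9.68 and 10.34. The groups with and without BayK8644 did not overlap at any time, but at 0.5 h they were 0.05 ± 0.10 apart (adjusted p = 1). BayK8644 raised Nab1 at 2 h by 1.07 ± 0.10 (2.09-fold, adjusted p = 0.000838), at 6 h by 0.73 (1.66-fold, adjusted p = 0.00482) and at 24 h by 0.56 (1.47-fold, adjusted p = 0.0136). The 2 h call was kept with each of the 16 arrays left out (highest adjusted p 0.049). The 6 h call was lost without any 1 array of 6 h (up to 0.11), and the 24 h call without the Exendin-4 array or the array with both agents of 24 h (up to 0.137). With the arrays of 24 h fitted alone, the 24 h difference of 0.56 had an adjusted p of 0.186.

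Nab2 had the larger rise of the corepressors, also from 2 h. At 0.5 h its level was 7.84 with DMSO, 7.96 with BayK8644, 8.19 with Exendin-4 and 8.49 with both. At 2 h it was 8.29, 10.79, 8.64 and 10.40. At 6 h it was 8.48, 9.66, 8.47 and 9.47, and at 24 h 8.60, 9.09, 8.48 and 9.18. At 0.5 h the groups overlapped, since the Exendin-4 array lay above the BayK8644 array, and from 2 h on they did not. BayK8644 raised Nab2 at 2 h by 2.13 ± 0.16 (4.38-fold, adjusted p = 0.00041), rank 7 by size among the 10610 genes. At 6 h the rise was 1.09 (2.13-fold, adjusted p = 0.0101). At 0.5 h the difference was 0.21 ± 0.16 (adjusted p = 1) and at 24 h 0.59 (1.51-fold, adjusted p = 0.0705), neither of which passed. The 2 h call was kept with each of the 16 arrays left out (highest adjusted p 0.00626), and the 6 h call was lost without any 1 array of 6 h (up to 0.182). The 24 h difference passed without any 1 array of 2 h (adjusted p down to 0.0289) and after a further quantile normalization (0.63, adjusted p = 0.0485).

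Among the 10610 genes tested, BayK8644 raised 0.217% at 0.5 h, 1.15% at 2 h, 1.71% at 6 h and 2.99% at 24 h. It lowered 0, 0.481, 0.773 and 2.12%. Of the 4 genes described here 2 were called at 0.5 h, 3 at 2 h, 3 at 6 h and 2 at 24 h, all of them higher. A joint test of the 4 times had been chosen by an earlier analysis after the data were seen. It called 4.91% of genes (521), among them Egr1 (adjusted p = 1.83e-05), Egr2 (8.83e-06), Nab1 (0.000567) and Nab2 (0.00049). Arrays with BayK8644 lay above those without it for 3, 3, 4 and 4 of the 4 genes at 0.5, 2, 6 and 24 h, while 19, 17.3, 24.4 and 23.5% of all genes did so.

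**Figure D2:**
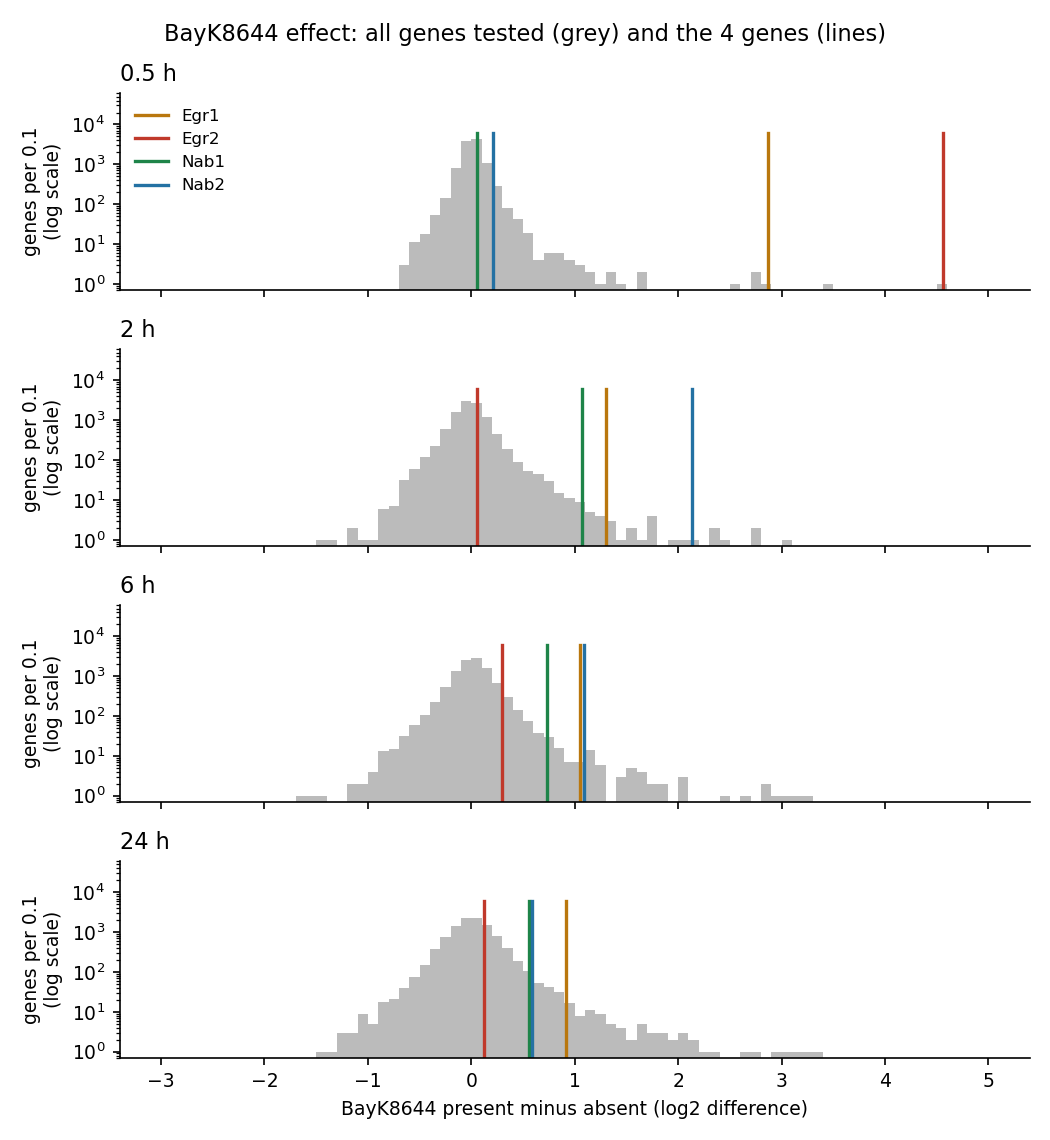
Number of genes (vertical axes, log scale) by the log2 difference between arrays with and without BayK8644 (horizontal axis, bins of 0.1), at 0.5, 2, 6 and 24 h. Grey bars are all 10610 genes tested and coloured lines are the 4 genes. Egr2 at 4.56 and Egr1 at 2.87 lie far to the right at 0.5 h, Nab2 at 2.13 does so at 2 h, and by 24 h the lines lie between 0.12 for Egr2 and 0.92 for Egr1.

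The shift in time between the Egr and the Nab genes was tested as a change of the BayK8644 effect between times. Between 0.5 and 2 h the effect fell by 1.56 ± 0.19 for Egr1 (adjusted p = 0.0154), and it fell by 4.51 ± 0.22 for Egr2 (adjusted p = 8.34e-05). Over the same interval it rose by 1.02 ± 0.14 for Nab1 (adjusted p = 0.0208) and by 1.92 ± 0.23 for Nab2 (adjusted p = 0.0154). All 4 genes were among the 0.283% of genes (30) whose effect differed between these times. Egr2 passed the expression filter only through its 0.5 h arrays with BayK8644, so its place there is not independent of its fall. The size of that fall is set in part by the method's floor. The factors and the corepressors thus moved in opposite directions between the first pair of times.

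These calls differed in how they changed with single arrays left out. The arrays of 6 h do not enter the difference between 0.5 and 2 h. Leaving any 1 of them out alters only the pooled error. The Egr2 call was kept with each of the 16 arrays left out. The Egr1 call was lost without any 1 array of 2 h or 6 h, or without either the DMSO array or the BayK8644 array of 0.5 h (adjusted p up to 0.204). The Nab1 call was lost without any 1 of the arrays of 0.5, 2 or 6 h (up to 0.329). The Nab2 call was lost without any 1 array of 0.5 or 6 h, or without either the DMSO array or the BayK8644 array of 2 h (up to 0.221). With no intensity trend in the variance, the adjusted p was 0.0582 for Egr1 and 0.0508 for each Nab gene.

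The BayK8644 effect on the Egr genes was also smaller at the later times than at 0.5 h. Against 0.5 h, the effect on Egr1 fell by 1.82 at 6 h (adjusted p = 0.00517) and fell by 1.95 at 24 h (adjusted p = 0.00388). For Egr2 it fell by 4.26 at 6 h (adjusted p = 0.000136) and fell by 4.44 at 24 h (adjusted p = 9.59e-05). At 6 and 24 h, 0.368 and 1.02% of all genes had an effect that differed from that of 0.5 h. Without any 1 array of 6 h the Egr1 call for 6 h was lost (up to 0.0805), while the Egr1 call for 24 h and both Egr2 calls were kept with each array left out. For Nab1 the effect was higher than at 0.5 h by 0.68 at 6 h (adjusted p = 0.0986) and 0.51 at 24 h (0.147), and for Nab2 by 0.88 (0.257) and 0.38 (0.48), none of which passed.

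The effect on the Nab genes after 2 h did not pass the test of its difference from 2 h. The Nab2 effect at 24 h minus that at 2 h was -1.54 ± 0.23 (adjusted p = 0.0599), and at 6 h minus 2 h it was -1.04 ± 0.23 (adjusted p = 0.951). For Nab1 these differences were -0.51 (adjusted p = 0.309) and -0.34. In limma, 11 genes (0.104%) were called between 24 and 2 h, and 0 between 6 and 2 h, where 353 had an unadjusted p under 0.05. For the genes called at 24 h, the log2 difference at that time was 52.3% of the largest one for Nab1 and 32% for Egr1. Of the 521 genes called over the 4 times, 24 (4.61%) had their largest difference at 0.5 h, as Egr1 and Egr2 did. The largest difference fell at 2 h in 124 (23.8%), as for Nab1 and Nab2, at 6 h in 139 (26.7%) and at 24 h in 234 (44.9%).

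**Figure D3:**
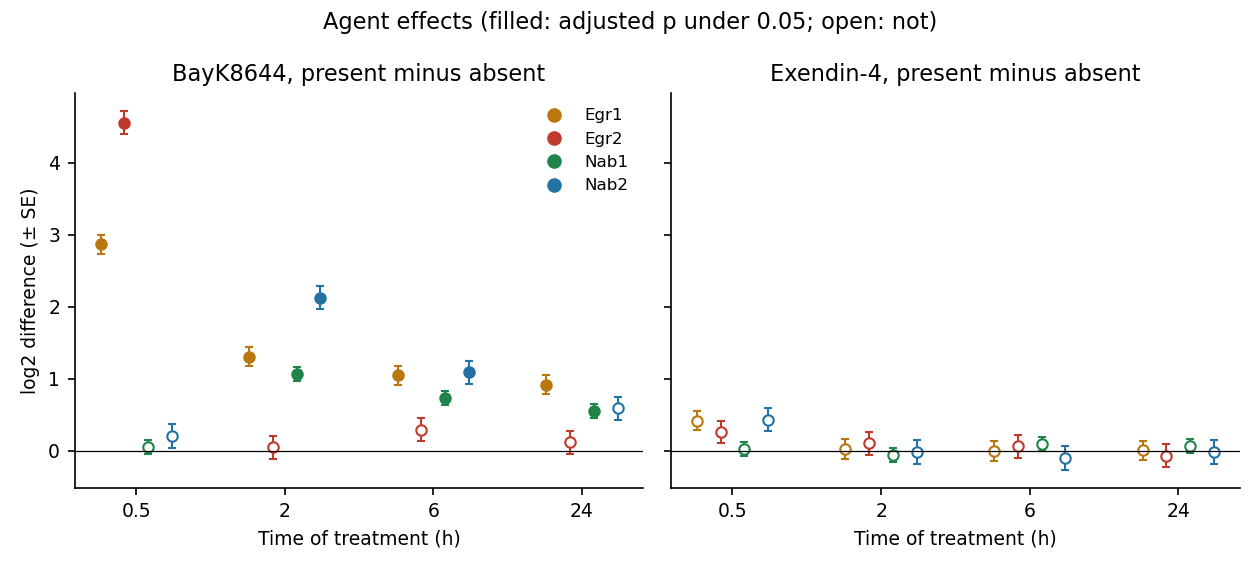
Log2 difference between arrays with and without BayK8644 (left) and with and without Exendin-4 (right) for the 4 genes (vertical axis) by time of treatment in h (horizontal axis, evenly spaced). Bars are 1 SE from the limma model and filled points have an adjusted p under 0.05. The filled points are all in the BayK8644 panel, from 0.56 for Nab1 at 24 h to 4.56 for Egr2 at 0.5 h.

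Exendin-4 passed the test for none of the 4 genes at any time. At 0.5 h its differences were 0.42 ± 0.13 for Egr1 (95% interval 0.12 to 0.72), 0.43 ± 0.16 for Nab2 (0.06 to 0.80), 0.26 for Egr2 (-0.10 to 0.62) and 0.03 for Nab1 (-0.19 to 0.24). Each had an adjusted p of 1. At 2, 6 and 24 h they lay between -0.10 and 0.11, with intervals from -0.47 to 0.47. In limma the call rate of Exendin-4 was 0.00943% of genes at 0.5 h (1 gene), 0.0189% at 2 h (2 genes) and 0 genes at 6 and 24 h. At unadjusted p under 0.05 there were 200, 589, 739 and 627 genes at these 4 times. In the joint test over times the adjusted p was 0.978 for Egr1 and 1 for the other genes.

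The difference for Egr1 at 0.5 h came mainly from the arrays without BayK8644. Exendin-4 alone was 0.76 above DMSO (1.69-fold), 1 array against 1, while the array with both agents was 0.09 above that with BayK8644 alone. A model with an interaction term at 1 time fits the arrays of that time exactly. The SE and p-values it gives there come from the arrays of the other times and do not measure the spread at that time. In a model with an interaction term at 0.5 h, chosen after these values were seen, the difference without BayK8644 had an adjusted p of 0.653, with 1 gene (0.00943%) called and 106 under an unadjusted p of 0.05. The interaction for Egr1 at 0.5 h was -0.67 ± 0.16 and that for Nab2 at 2 h -0.75 ± 0.22, with adjusted p of 1 and 0.992. With 1 interaction term over all times, the values were -0.26 ± 0.11 for Egr1 (adjusted p = 0.778), 0.21 for Egr2, 0.13 for Nab1 and -0.14 for Nab2. In limma that term called 0 genes, with 648 at an unadjusted p under 0.05. No departure from adding effects was detected at this number of arrays, and the 95% intervals were -0.50 to -0.02 for Egr1 and -0.50 to 0.23 for Nab2.

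Each treatment was also compared with DMSO over the 4 times together, so that an effect confined to 1 time counts as error. Egr1 was higher with BayK8644 alone by 1.67 ± 0.31 (adjusted p = 0.0269), where 0.839% of genes were called. Nab2 at 1.07 ± 0.30 (adjusted p = 0.116), Nab1 at 0.54 ± 0.15 (0.115) and Egr2 at 1.15 ± 0.73 (0.504) did not pass. With both agents, Egr1 (1.65, adjusted p = 0.0139), Nab1 (0.64, 0.0275) and Nab2 (1.08, 0.0467) were higher and Egr2 (1.35 ± 0.73, 0.248) did not pass, where 6.97% of genes were called. These comparisons share the DMSO arrays. Exendin-4 alone differed from DMSO by 0.24 for Egr1, -0.01 for Egr2, -0.03 for Nab1 and 0.14 for Nab2. For that comparison limma called 0 of the genes tested, with 698 at an unadjusted p under 0.05. BayK8644 alone was above Exendin-4 alone by 1.42 for Egr1 (adjusted p = 0.0542), 1.16 for Egr2 (0.546), 0.93 for Nab2 (0.179) and 0.57 for Nab1 (0.106), where 0.754% of genes were called. That Egr1 difference passed without the DMSO array of 0.5 h or the array with both agents of 0.5 h (adjusted p down to 0.0103), and the Nab1 difference passed without the Exendin-4 array of 0.5 h (0.0254).

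Several of these calls over all times were lost in other fits. Without the expression filter the adjusted p was 0.07 for Egr1 with BayK8644, 0.0619 for Nab1 with both agents and 0.101 for Nab2 with both agents. With 16 added to each intensity it was 0.0502 for Nab2 with both agents. The Egr1 call with BayK8644 was lost without any 1 of the BayK8644 arrays of 2, 6 or 24 h or the DMSO arrays of 2 or 6 h (up to 0.104). With both agents, the Nab1 call was lost without any 1 DMSO array, or array with both agents, of 2, 6 or 24 h (up to 0.115). The Nab2 call was lost without any 1 of these arrays or of the BayK8644 arrays of 6 and 24 h or the Exendin-4 arrays of 2 and 6 h (up to 0.15), and the Egr1 call was kept in all 16 cases. The Egr2 values rest on the arrays of 0.5 h. With either its BayK8644 array or its DMSO array of that time left out, the difference with BayK8644 alone was as low as 0.40. Without the DMSO array of 0.5 h or the array with both agents, that with both agents was as low as 0.56, and without the BayK8644 or the Exendin-4 array, that of BayK8644 against Exendin-4 was as low as 0.45. With BayK8644 alone, the Nab1 difference passed without the DMSO array of 0.5 h (0.0452) and the Nab2 difference without the BayK8644 array of 0.5 h (0.0327).

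Without an agent no level of Egr1 or Nab2 passed the test of culture time. The fitted level of Nab2 was above that of 0.5 h by 0.68, 0.73 and 0.75 (each ± 0.20) at 2, 6 and 24 h, with adjusted p of 0.648, 0.641 and 0.122. Egr1 differed by -0.48, -0.48 and -0.42 (each ± 0.16), with adjusted p of 0.714, 0.673 and 0.316. In limma 0 genes were called at 2 and 6 h, with 693 and 696 at an unadjusted p under 0.05, and 2% of genes at 24 h. The DMSO arrays of Nab2 were at 7.84 at 0.5 h and 8.60 at 24 h, and both of its BayK8644 arrays of 0.5 h lay below the latter.

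Ordered by level within each gene, the top arrays stood apart from the rest. The residual SD in the model (4 degrees of freedom) was 0.179 for Egr1, 0.155 for Egr2, 0.09 for Nab1 and 0.205 for Nab2. It measures the spread of the arrays around added effects of the agents. For Egr1 the 0.5 h arrays with both agents and with BayK8644 were 0.09 apart, within that spread, and 2.15 above the next array, BayK8644 at 2 h. A gap of 0.67 separated the 9th array of Egr1 (both agents at 24 h) from the 10th (DMSO at 0.5 h). For Egr2 the top pair was 0.46 apart, or 2.98 residual SD, which is outside that spread, and 3.98 above every other array. For Nab1 the order ran from both agents at 2 h (10.75) and BayK8644 at 2 h (10.65) through the 6 h and 24 h arrays with BayK8644, and a gap of 0.43 separated the 6th array (BayK8644 at 24 h, 10.16) from the 7th (DMSO at 2 h, 9.73). For Nab2 the top pair was 0.39 apart, or 1.92 residual SD, also outside the spread, and 0.74 above the next array. A gap of 0.45 followed the 6th array of Nab2 (9.09), with Exendin-4 at 2 h (8.64) as the 7th. The top pair of Nab1 was 1.01 residual SD apart.

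Further probe sets gave a second reading for Egr2 and Nab1. Egr2 1427683_at was at 3.20 with DMSO, 7.55 with BayK8644, 3.21 with Exendin-4 and 8.71 with both at 0.5 h. Its BayK8644 difference there was 4.92 ± 0.26 (adjusted p = 0.000618), and its Pearson correlation with the first probe set over the 16 arrays was 0.993. For Nab1, 1448781_at gave a BayK8644 rise of 1.49 ± 0.18 at 2 h (adjusted p = 0.0183). Its differences of 0.69 at 6 h (adjusted p = 0.162) and 0.31 at 24 h (0.399) did not pass, unlike those of 1417624_at, and the correlation was 0.884. The p-values of the further probe sets were adjusted over the 19204 probe sets kept, and those of 1417624_at over 10610 genes. The remaining Nab1 probe set, 1438819_at, lay between 2.00 and 2.05 on all arrays, under the filter level, and was not tested. Egr1 and Nab2 had 1 probe set each, so their values have no such second reading.

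**Figure D4:**
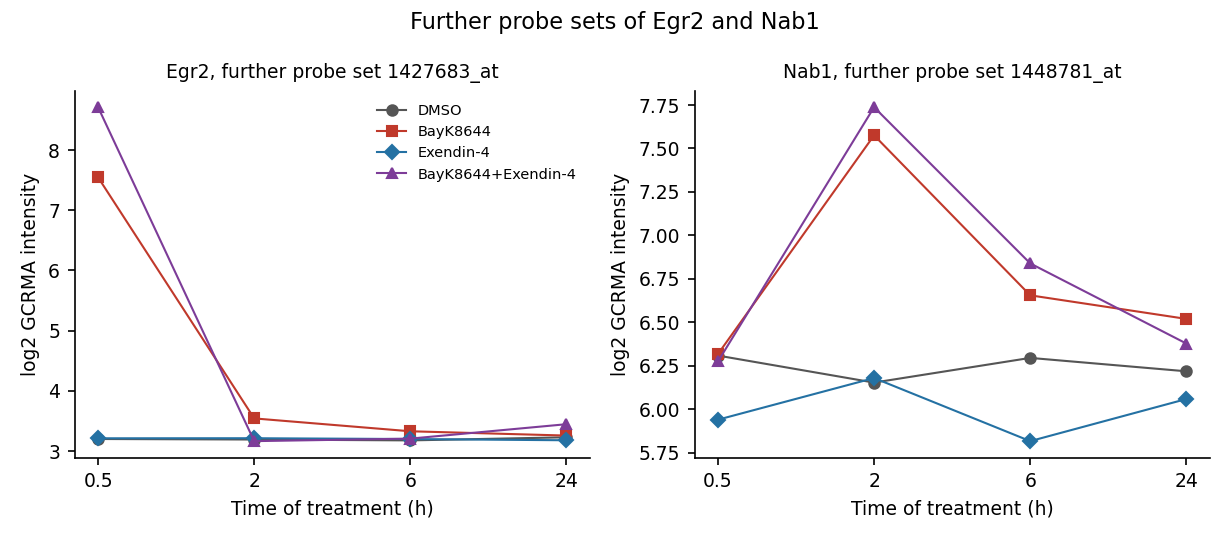
Log2 GCRMA intensity of the further probe sets Egr2 1427683_at (left) and Nab1 1448781_at (right), with vertical axes of their own, by time of treatment in h (evenly spaced). Each point is 1 array and each line 1 treatment. The Egr2 probe set is high on the 0.5 h arrays with BayK8644 (7.55 and 8.71) and the Nab1 probe set is highest on the 2 h arrays with BayK8644.

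The genes whose levels ran most like each member were taken as the 5 with the highest Pearson correlation over the 16 arrays, which share treatments and times. For Egr1 these were other immediate early genes, Fos (r = 0.981), Ier2 (0.950), Junb (0.941), Fosb (0.939) and Atf3 (0.932). Without the 2 arrays farthest from the Egr1 median, the 0.5 h arrays with BayK8644, they were 0.964, 0.813, 0.917, 0.901 and 0.709. For Egr2 they were Fos (0.959), AF067061 (0.939), Atf3 (0.915), Dusp1 (0.908), a MAP kinase phosphatase, and Egr1 (0.905). Without the same 2 arrays these fell to 0.499, 0.186, 0.675, 0.0222 and 0.494, so the likeness to Egr2 rests largely on those arrays.

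The Nab genes ran with other companions. For Nab1 the closest were Fam117a (0.933), Tubb6 (0.928), a tubulin, Lmna (0.924), which encodes lamin A, Nab2 (0.923) and Relb (0.919), an NF-kappaB subunit. For Nab2 they were Rhpn2 (0.954), Msmo1 (0.934), Sqle (0.934), Nab1 (0.923) and Cyp51 (0.921). Msmo1, Sqle and Cyp51 encode enzymes of sterol synthesis. Without the BayK8644 arrays of 2 h the correlation of Nab1 with Nab2 was 0.853. Over the 16 arrays Egr1 correlated with Nab1 at 0.173 and with Nab2 at 0.0558. Over the 14 arrays other than the 0.5 h arrays with BayK8644 the values were 0.858 and 0.753, and over the 14 arrays other than the 2 h arrays with BayK8644 they were 0.122 and -0.0757. The relation of Egr1 to the Nab genes thus depends on which arrays are left out.

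The other Egr family genes on the array, Egr3 and Egr4, never reached the filter level. The Egr3 probe sets lay between 2.52 and 2.61 and between 1.18 and 1.21, and Egr4 between 0.90 and 0.93, on all 16 arrays. No level could therefore be compared between treatments for these genes.

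Genes of the input to Egr transcription (SRF, Elk factors, CREB, MAP kinases and their relatives) gave at most 1 call at a time. Of 25 listed, 13 were tested. With BayK8644 none of the 13 was called higher, where 0.217, 1.15, 1.71 and 2.99% of all genes were at 0.5, 2, 6 and 24 h. In this list 1 of 13 was called lower at 2, 6 and 24 h, where 0.481, 0.773 and 2.12% of all genes were, so these counts say little about the list. The gene was Rps6ka5, which encodes the kinase MSK1 that acts on CREB and histone H3. Its differences were -0.80 ± 0.12 (adjusted p = 0.0119), -0.79 (0.0101) and -0.57 (0.0296). The list's median differences were 0.07, -0.01, -0.03 and -0.16 at 0.5, 2, 6 and 24 h, against 0.01, -0.01, 0.01 and 0.01 for all genes. Srf itself was 0.45 ± 0.17 higher at 0.5 h and did not pass.

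Of the 13 subunits of the NuRD complex, all were tested and 1 was called with BayK8644, lower at 24 h, where 2.12% of all genes were lower and 2.99% higher. Hdac2, a histone deacetylase, fell by 0.26 ± 0.06 at 24 h (adjusted p = 0.0318). The medians of this list were 0.01, -0.03, -0.04 and -0.09 at the 4 times, against 0.01, -0.01, 0.01 and 0.01 for all genes.

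Of 38 genes reported as Egr targets in other systems, 20 were tested. BayK8644 raised 2, 2, 2 and 3 of them at 0.5, 2, 6 and 24 h and lowered 0, 1, 1 and 2. Of all genes, 0.217, 1.15, 1.71 and 2.99% were raised and 0, 0.481, 0.773 and 2.12% lowered. The list medians were 0.03, -0.01, 0.02 and 0.02, against 0.01, -0.01, 0.01 and 0.01 for all genes. At 0.5 h the called genes were Arc, a synaptic immediate early gene (0.91, adjusted p = 0.0273), and Id1, an inhibitor of differentiation factors (0.68, 0.0207). Id1 stayed higher at 2, 6 and 24 h, by 0.86, 1.05 and 0.81. Gadd45a, a growth arrest and DNA damage gene, was lower at these times, with differences of -0.59, -0.84 and -1.07. The other genes called were the cell cycle inhibitor Cdkn1a, higher by 0.32 at 2 h, the growth factor Vegfa, higher by 0.37 at 6 h, and the matrix gene Fn1, which fell by 0.87 at 24 h. Cdkn1a (0.34) and Gadd45b (0.71) were also called at 24 h and are named because the count is small. Exendin-4 called no gene of these 3 lists at any time. It called only 1, 2, 0 and 0 of the 10610 genes at 0.5, 2, 6 and 24 h, so this says little about the lists.

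The arrays had like overall values, while some cell type markers moved with BayK8644. The median intensity of an array was 10.5 at the lowest and 11.6 at the highest, and 46.7 to 47.7% of probe sets were at or over the filter level. All 8 beta-cell markers examined were above the filter, with Ins2 between 15.60 and 15.79 and Pdx1 between 13.22 and 13.43. Of the 8, BayK8644 changed 1, Nkx2-2, a beta-cell transcription factor. Nkx2-2 differed by -0.38 at 2 h (adjusted p = 0.0113), -0.35 at 6 h (0.0143) and -0.64 at 24 h (0.000499). Of all genes, 0.481, 0.773 and 2.12% were called lower at 2, 6 and 24 h, and 1.15, 1.71 and 2.99% higher. A count of 1 in 8 therefore says little about the beta-cell markers as a list. Of the markers of other islet cells, Gcg (9.08 to 10.06) and Sst (5.09 to 7.61) were above the filter and Ppy was not (1.79 to 1.84). The glucagon gene Gcg rose with BayK8644 by 0.52 at 6 h (adjusted p = 0.0348) and by 0.56 at 24 h (0.0176). The somatostatin gene Sst rose by 2.36 at 24 h (adjusted p = 0.000218, rank 8 of 10610), from a mean of 5.13 to 7.49. None of these 3 genes was called at 0.5 h, and at 2 h only Nkx2-2 of them was. Their part in the Egr and Nab results was not tested. The acinar, duct, mesenchymal, endothelial and leukocyte markers examined (Cpa1, Cela2a, Krt19, Col1a1, Pecam1 and Ptprc) were at 2.80 or lower on every array.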

How the data were processed

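Total RNA of R7T1 cells was hybridised to 1-colour arrays, 1 for each treatment and time. The authors deposited linear intensity, computed with GCRMA according to the submitters' processing notes (version not given in the sources used here). GCRMA subtracts a background predicted from each probe's bases, quantile-normalizes arrays and merges probes into probe sets. Log2 of the intensity was taken with no pseudocount. Of 45101 probe sets, 34945 had 1 gene symbol in the platform annotation (control probe sets left out), 932 had several and 9211 none. Those reaching log2 4 on at least 2 of 16 arrays were kept (19204), and the one with the highest mean stood for a gene, which left 10610 genes. The number of arrays limits the precision.

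The limma package (3.58.1, R 4.3.3) was used for all models, with lmFit and eBayes with an intensity trend, and the code was tested on simulated data. P-values were adjusted by Benjamini-Hochberg across the 10610 genes in the main fits, and 0.05 was the threshold. Those of the further probe sets came from the fit of all probe sets and were adjusted across the 19204 kept. The model held time and each agent within time (4 residual degrees of freedom). It assumed that the effects of the agents add up at each time, and departures from this, pooled over times, were its error. The interaction model had 3 and the model over all times 9. Effects at 6 and 24 h against 2 h, the interaction at a single time and Exendin-4 without BayK8644 at 0.5 h were added after the values were seen. The joint test over times was chosen by an earlier analysis, also after the data were seen. Named beside the 4 genes were Egr3 and Egr4, for each list up to 3 called genes with the largest difference per comparison, and for each gene the 5 most correlated. The genes and lists were chosen with earlier results of these data known. Promoter windows are from RefSeq. Alternatives were no filter, an added 16, all probe sets, no trend, a repeated quantile normalization, each time alone, the further probe sets and each array left out.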

Additional observations from a re-analysis of the deposited data

Results flagged for a closer look

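The BayK8644 effect differed between times, by the test of the difference itself, in 8 cases. Against 0.5 h, the effect at 2 h differed by -1.56 for Egr1, -4.51 for Egr2, 1.02 for Nab1 and 1.92 for Nab2. At 6 h it differed by -1.82 for Egr1 and -4.26 for Egr2, and at 24 h by -1.95 and -4.44. The Egr2 values carry the method's floor on the side of the later times, since its arrays of 2, 6 and 24 h were near or under the filter level.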

How the results depend on the processing

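With 1 array per treatment and time, no sample had a replicate, and the error was pooled over times. The labels carry no replicate numbers, so arrays could be matched across treatments by time only, and the models held time. The directions of the BayK8644 calls for the 4 genes were the same under every alternative run. The genes called with BayK8644 (23, 173, 263 and 542 at 0.5, 2, 6 and 24 h) were 36, 64 and 78 at 0.5, 2 and 24 h from the arrays of that time alone, 143 and 321 at 6 and 24 h with no trend, and 171 at 6 h with no filter. The Nab1 difference at 24 h, 0.56, did not pass from its own arrays, and with 1448781_at the Nab1 values of 0.69 at 6 h and 0.31 at 24 h did not pass. The Nab2 value at 24 h passed after a repeated quantile normalization, at 0.63. Exendin-4 calls (1, 2, 0 and 0) were 5 at 0.5 h from that time alone, 3 at 0.5 h and 2 at 24 h with no filter, and 0 at 2 h with all probe sets, no trend or that time alone. The cause was not tested. Exendin-4 values near 0 changed sign: Egr1 at 24 h (-0.0047) and 6 h (0.0014) after that normalization, Egr2 with 1427683_at at 2, 24 and 6 h (-0.18, 0.0696 and -0.0497), and Nab1 with 1448781_at at 0.5, 2, 24 and 6 h (-0.21, 0.094, -0.15 and -0.15).

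With each array left out in turn, the genes called ranged over 6 to 24, 19 to 242, 30 to 412 and 116 to 1467 at the 4 times. The BayK8644 difference ranged for Egr1 over 1.20 to 1.42 (2 h), 0.99 to 1.12 (6 h) and 0.91 to 0.93 (24 h), for Egr2 at 2 h over -0.0329 to 0.14, for Nab1 over 0.73 to 0.73 (6 h) and 0.45 to 0.66 (24 h), and for Nab2 over 0.9999 to 1.18 (6 h) and 0.49 to 0.69 (24 h). Exendin-4 ranges that crossed 0 were, for Egr1, -0.17 to 0.43 (all times), -0.0809 to 0.14 (2 h), -0.0664 to 0.0635 (6 h) and -0.0023 to 0.018 (24 h). For Egr2 they were -0.76 to 0.70 (all times), -0.12 to 0.25 (6 h), -0.18 to 0.0507 (24 h), -0.35 to 0.046 (2 h against 0.5 h) and -0.40 to 0.0023 (6 h against 0.5 h). For Nab1 they were -0.16 to 0.11 (all times), -0.20 to 0.0908 (2 h), -0.0345 to 0.18 (24 h), -0.23 to 0.0628 (2 h against 0.5 h) and -0.0625 to 0.15 (24 h against 0.5 h). For Nab2 they were -0.15 to 0.35 (all times), -0.39 to 0.36 (2 h) and -0.12 to 0.0877 (24 h), and its interaction ranged over -0.25 to 0.0676.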
